A study of Mus musculus with 6 samples.

Results

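Otx2, Pou3f1, Fgf5, Zic2, Foxd3, Sall2 and Tead2 are genes associated with the formative and primed states of pluripotency. These 7 genes, out of 27792 annotated protein-coding and lincRNA genes, were given as a list of names, and the H3K27ac peaks at their transcription start sites (TSSs), in their bodies and within 100 kb were described. Each gene was read against a single list of 22973 peak positions, which covered 89.6 Mb, with a median peak width of 2068 bp.

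The cells were E14 (E14Tg2A) mouse embryonic stem cells, a line carrying Rosa26-Cre and Oct4-IRES-Puro, grown in N2B27 medium with leukemia inhibitory factor (LIF), the MEK inhibitor PD0325901 and the GSK3 inhibitor CT-99021. The peak list described the control group, 2 chromatin immunoprecipitation samples of cells given DMSO, which were pooled in the list. The 2 samples treated with the CDK9 inhibitor NVP-2 and the 2 treated with actinomycin D, which blocks transcription, are not analysed here, and nothing below compares treatments. Because the list had no replicates and no peak heights, values are given as positions, widths and counts without a test. The list held only peaks that passed filters on height and on nearness to accessible chromatin, so a promoter without a peak may still carry some acetylation.

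H3K27ac is the acetylation of lysine 27 of histone H3, a mark of active promoters and enhancers laid down mainly by CBP and p300. Embryonic stem cells held in LIF with MEK and GSK3 inhibitors resemble the naive epiblast. When these inhibitors are withdrawn, naive cells pass through a formative state, in which competence for the germ layers is gained, towards a primed state like that of the epiblast after implantation. Otx2 and the POU factor Pou3f1 (Oct6) are known drivers of that exit, and Fgf5, a secreted growth factor, is its classical marker.

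The labelled cell type was checked against marker genes. A promoter was called marked where a peak overlapped the 2 kb centred on any annotated TSS of the gene, which was so for 51.9% of protein-coding genes. Of 5 core pluripotency genes 4 were marked, Pou5f1, Sox2, Lin28a and Utf1, and Sall4 was not. Of 12 naive genes 11 were marked, all but Klf4. Of 14 germ layer genes 5 were marked, namely Eomes, Gsc, Sox1, Gata4 and Gata6, while T, Mixl1, Foxa2, Sox17, Pax6, Hand1, Mesp1, Cer1 and Tbx6 were not.

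The promoters themselves differed in base composition. The 200 bases before the main TSS, which is the start of the isoform with the longest span, are printed for 6 of the 7 genes, together with those before the internal TSS of Sall2, because the marked and unmarked promoters can be read side by side. Capitals mark each CpG, and all coordinates are mm10 (GRCm38.p6).
Zic2 main TSS, chr14:122475235-122475434, plus strand: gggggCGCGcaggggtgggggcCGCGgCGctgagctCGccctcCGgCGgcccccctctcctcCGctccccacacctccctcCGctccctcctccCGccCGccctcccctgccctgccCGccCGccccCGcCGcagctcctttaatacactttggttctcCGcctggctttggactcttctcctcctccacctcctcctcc
Foxd3 main TSS, chr4:99656099-99656298, plus strand: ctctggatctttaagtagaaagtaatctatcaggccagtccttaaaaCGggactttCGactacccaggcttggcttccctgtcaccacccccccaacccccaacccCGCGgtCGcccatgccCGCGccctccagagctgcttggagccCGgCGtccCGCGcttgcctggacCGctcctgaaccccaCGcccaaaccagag
Tead2 main TSS, chr7:45215553-45215752, plus strand: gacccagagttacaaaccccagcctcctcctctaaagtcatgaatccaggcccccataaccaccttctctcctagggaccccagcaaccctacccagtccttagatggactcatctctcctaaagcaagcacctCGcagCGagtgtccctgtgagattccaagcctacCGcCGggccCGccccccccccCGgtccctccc
Sall2 main TSS, chr14:52328763-52328962, minus strand: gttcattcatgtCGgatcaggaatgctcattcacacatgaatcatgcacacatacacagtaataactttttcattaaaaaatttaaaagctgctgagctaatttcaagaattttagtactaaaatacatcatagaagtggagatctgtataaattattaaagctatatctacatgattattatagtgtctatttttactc
Sall2 internal TSS, chr14:52316324-52316523, minus strand: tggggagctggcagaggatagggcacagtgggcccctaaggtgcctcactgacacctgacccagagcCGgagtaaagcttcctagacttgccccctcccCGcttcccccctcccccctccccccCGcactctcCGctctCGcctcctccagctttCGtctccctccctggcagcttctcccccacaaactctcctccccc
Pou3f1 main TSS, chr4:124656607-124656806, plus strand: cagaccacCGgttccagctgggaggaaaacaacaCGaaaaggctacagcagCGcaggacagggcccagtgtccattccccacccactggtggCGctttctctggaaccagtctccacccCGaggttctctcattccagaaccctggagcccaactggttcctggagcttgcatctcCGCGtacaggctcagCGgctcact
Fgf5 main TSS, chr5:98253984-98254183, plus strand: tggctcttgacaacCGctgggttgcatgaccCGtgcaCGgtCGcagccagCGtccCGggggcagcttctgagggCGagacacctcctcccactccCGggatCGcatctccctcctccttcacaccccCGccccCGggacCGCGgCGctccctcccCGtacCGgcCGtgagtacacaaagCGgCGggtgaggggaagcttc
The Zic2 stretch held 17 CpGs at 74.5% GC and the Fgf5 stretch 19 CpGs at 69.5% GC, yet the first lay wholly within a peak and the second had no base in one. The Foxd3 stretch held 13 CpGs and that of Pou3f1 held 8. Both Sall2 stretches belong to 1 gene and were unlike each other. The main one held 1 CpG at 28.5% GC and the internal one 6 CpGs at 66.5% GC.

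Otx2, Zic2, Foxd3, Tead2 and Sall2 were marked at a promoter, and Pou3f1 and Fgf5 were not. This count of 5 of 7 stood beside 44.3% of all 27792 genes and 51.9% of the 21938 protein-coding genes. The same 5 genes had a peak in the gene body, against 55.9% of protein-coding genes. Each of these body peaks reached a promoter window of its own gene. How often this holds over all protein-coding genes is not given here, so it cannot be set beside a background. Foxd3 and Zic2 span only 2.32 kb and 4.42 kb, and Otx2 and Tead2 have 10 and 16 TSSs. All 7 had at least 1 peak within 100 kb of the main TSS, as did 80.4% of protein-coding genes.

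The share of genes marked at any isoform grew with the number of annotated TSSs, and the 7 genes ranged widely in it. Otx2 had 10 TSSs and Tead2 had 16, and of protein-coding genes with 10 or more TSSs 86.9% were marked. Fgf5, Zic2 and Sall2 had 2 TSSs each, a class in which 33.0% were marked. Pou3f1 and Foxd3 had a single TSS, and in that class 24.4% were marked.

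Around the main TSS the 7 genes had a median of 5 peaks within 100 kb and a median of 29.3 kb of sequence under peaks. The medians over protein-coding genes were 3 peaks and 8.25 kb, and over those with a marked promoter 5 peaks and 16.3 kb. The length depended on the distance. Within 50 kb the median was 9.25 kb for the 7 genes, 3.74 kb for protein-coding genes and 8.58 kb for marked ones, and within 200 kb it was 30.5 kb, 18.6 kb and 31.4 kb. The spread among the 7 genes was wide, from the 0.437 kb of Fgf5 to the 47.2 kb of Zic2. The peaks numbered 39 in all, none shared by 2 of the genes. Each was placed in the first class that applied. A promoter of the gene itself held 7, of which 4 also lay at a promoter of another gene, and 17 lay only at a promoter of another gene. A further 8 lay in the body of another gene away from promoters, and 7 lay outside all protein-coding and lincRNA genes, here called intergenic, of which 3 overlapped an exon of another annotated gene type.

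**Figure D1:**
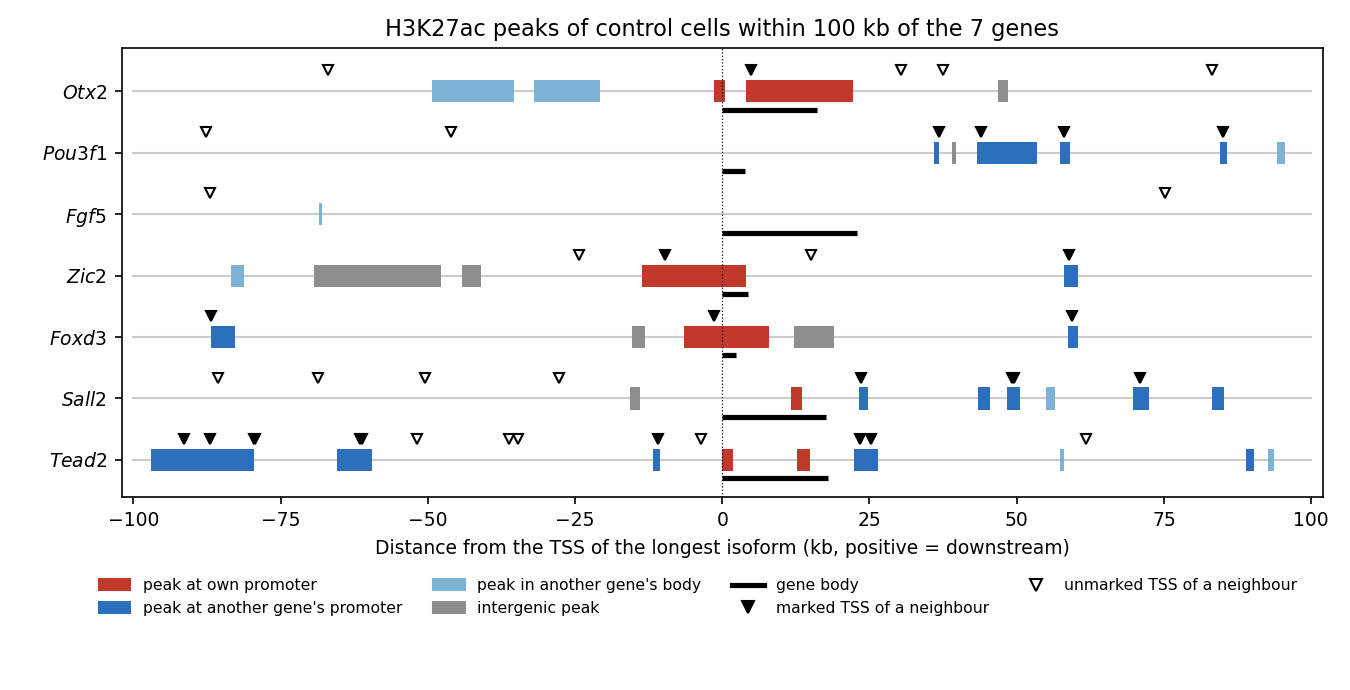
Position of every H3K27ac peak of control cells within 100 kb of the main TSS of the 7 genes, with distance in kb along each gene's own strand on the horizontal axis. Bars are peaks coloured by where they lie, black lines are gene bodies, and triangles are main TSSs of neighbouring genes, filled where marked. Peaks lie on both sides of the main TSS of Otx2, Zic2, Foxd3, Sall2 and Tead2, all 6 peaks of Pou3f1 lie downstream, and Fgf5 has 1 peak.

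Otx2, a homeodomain factor of the bicoid type, lies on the minus strand at chr14:48657677-48673819. It had 11 annotated isoforms, and the TSS of every one lay inside a peak. A peak of 1.73 kb ran from 1.33 kb upstream to 0.391 kb downstream of the main TSS. A second peak, 18.1 kb wide, began 4.02 kb downstream, held the other 9 TSSs and continued past the end of the gene. Together both peaks covered 77.5% of the gene body. Only 2.38% of peaks in the list were wider than the second.

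Sequence upstream of Otx2 was also marked. Peaks of 11.1 kb and 14.0 kb lay 20.8 kb and 35.3 kb upstream of the main TSS. Both fell in the body of Otx2os1, the lincRNA transcribed from the opposite strand, and away from any promoter. The main TSS of Otx2os1 lay 4.90 kb downstream of that of Otx2, under the 18.1-kb peak, and the 1.73-kb peak also lay at an annotated Otx2os1 promoter, so neither peak can be assigned to one of the genes. The 4 other neighbouring TSSs, all of lincRNAs, were unmarked. In all 46.7 kb within 100 kb of Otx2 were under peaks, and 7.75% of protein-coding genes had more.

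Zic2, a zinc finger factor of the Zic family, lies at chr14:122475435-122479852. A single peak of 17.7 kb reached from 13.6 kb upstream to 4.07 kb downstream and covered 92.1% of the gene. It also covered the promoter of the divergently transcribed Zic5, whose TSS lay 9.76 kb upstream. The peaks around Zic2 and Zic5 were therefore the same ones, 5 peaks over 47.2 kb for both.

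The widest peak near any of the 7 genes stood in intergenic sequence 47.8 kb upstream of Zic2. It was 21.6 kb wide, and 1.62% of all peaks were wider. A 3.36-kb intergenic peak lay between it and the promoter peak, 40.9 kb upstream. The others lay inside Clybl and at the promoter of Pcca, which encodes a subunit of propionyl-CoA carboxylase. Across the 200 kb around Zic2 7.52% of protein-coding genes had more sequence under peaks.

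Foxd3, a forkhead factor with a single exon, lies at chr4:99656299-99658622. The whole gene sat inside a peak of 14.5 kb that extended 6.54 kb upstream and 7.92 kb downstream of the TSS. The lincRNA Gm12688 starts 1.32 kb upstream on the opposite strand, under the same peak. Intergenic peaks flanked it on both sides, 2.13 kb wide at 13.2 kb upstream and 6.85 kb wide at 12.1 kb downstream. The remaining peaks lay at the promoters of Gm12690 and of Alg6, a glucosyltransferase gene. The upstream flanking peak is shown because it differs from the promoter in composition, with CpGs in capitals.
Middle of the intergenic peak upstream of Foxd3, chr4:99641927-99642226, plus strand: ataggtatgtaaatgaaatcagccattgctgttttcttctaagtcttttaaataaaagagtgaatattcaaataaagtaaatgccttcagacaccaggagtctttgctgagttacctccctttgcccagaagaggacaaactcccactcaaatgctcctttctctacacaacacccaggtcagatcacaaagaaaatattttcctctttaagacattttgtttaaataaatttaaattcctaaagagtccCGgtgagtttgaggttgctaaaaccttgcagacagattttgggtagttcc
These 300 bases held 1 CpG at 36.7% GC, whereas the 200 bases before the Foxd3 TSS held 13 at 62.5% GC. Over whole peaks, the 7 intergenic peaks had a median GC content of 45.4%, from 40.3% to 54.5%. The 7 peaks at the genes' own promoters had a median of 52.6%, from 47.7% to 59.8%, so the ranges overlapped. All peaks of the list had a median of 49.5%.

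Tead2, a TEAD factor that binds DNA for the coactivators Yap1 and Wwtr1, lies at chr7:45215753-45233644. A peak of 1.88 kb started 8 bp upstream of the main TSS and covered all 1001 bases from the TSS to 1 kb downstream. Of its 17 isoforms 13 were marked. The 4 unmarked ones, a retained-intron form and 3 processed transcripts, started 4.16 kb, 4.69 kb, 6.86 kb and 16.4 kb downstream. A second body peak of 2.33 kb ran from 12.6 kb to 14.9 kb and reached the promoter window of a protein-coding isoform that starts 15.6 kb downstream.

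Tead2 had the most peaks of the 7 genes, 9, and also the most neighbours. Of 14 other genes with a main TSS within 100 kb 9 were marked, and 4 of the 9 peaks lay at their promoters, with 1 more at a promoter of Trpm4. The widest, 17.6 kb, covered promoters that included those of the ribosomal protein gene Rpl13a, of Gm45713 and of Flt3l. Another of 5.97 kb lay at Aldh16a1 and Pih1d1. In all 35.9 kb around Tead2 were under peaks, of which the gene's own 2 peaks covered 4.20 kb of gene body. Only 3.21% of protein-coding genes had more neighbours.

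Sall2, a zinc finger factor of the spalt family, lies on the minus strand at chr14:52311172-52328762, and its promoters were not alike. The main TSS had no peak base within 1 kb, and the nearest peak was 11.6 kb away. The internal TSS, 12.4 kb downstream, lay inside a peak of 1.85 kb and was marked. Both isoforms are protein-coding. Marking at another isoform but not at the main TSS was seen in 4.07% of the 17056 protein-coding genes with more than 1 TSS, and with main TSSs alone 48.7% of protein-coding genes and 4 of the 7 genes were marked.

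The rest of the Sall2 neighbourhood was made up largely of other genes. Of its 8 peaks 5 lay at promoters of Chd8, Rab2b, Tox4 and Mettl3, all on the downstream side, and 1 lay inside Rab2b. Mettl3 encodes the catalytic subunit of the RNA N6-methyladenosine writer. On the upstream side lay 4 olfactory receptor genes, Olfr1513, Olfr1512, Olfr1511 and Olfr1510, none marked, and a single intergenic peak of 1.73 kb at 13.9 kb. No peak near Sall2 was wider than 2.74 kb.

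**Figure D2:**
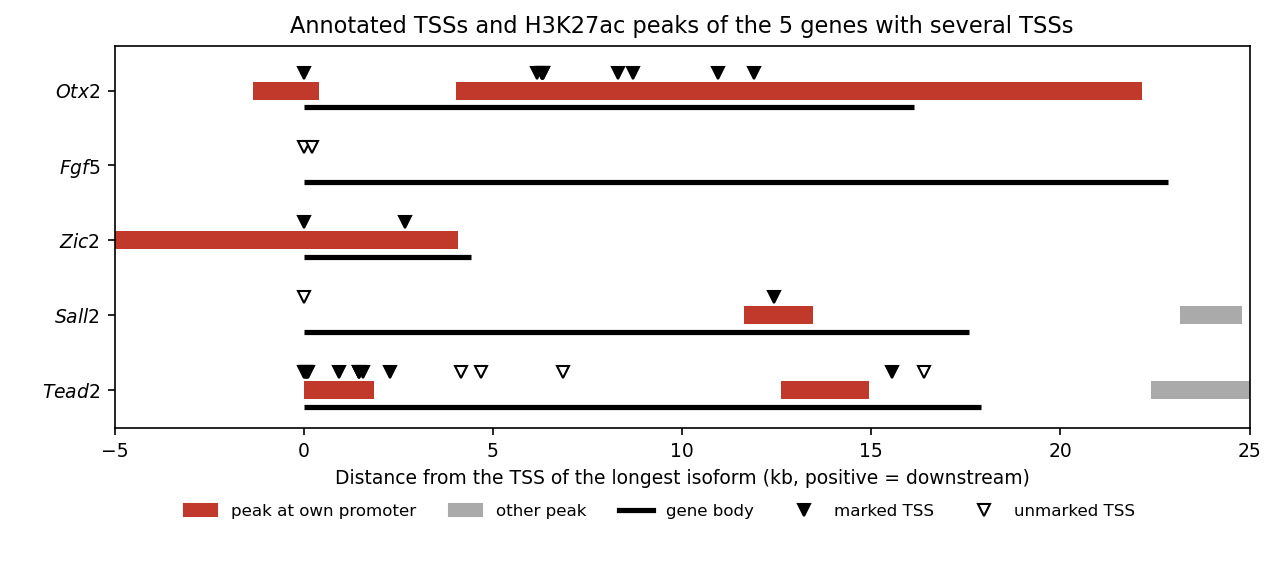
Annotated TSSs and H3K27ac peaks of the 5 genes with more than 1 TSS, with distance from the main TSS in kb along the gene's strand on the horizontal axis. Triangles are TSSs, filled where a peak lies within 1 kb, bars are peaks and black lines gene bodies. Each TSS of Otx2 is filled, the main TSS of Sall2 is open and its internal TSS filled, and both TSSs of Fgf5 are open.

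Pou3f1, a single-exon POU factor gene at chr4:124656807-124660655, had no peak at its TSS or in its body. Its nearest peak lay 36.0 kb downstream. All 6 peaks within 100 kb were downstream, at the promoters of Utp11, Fhl3, Sf3a3 and Inpp5b, inside Inpp5b, and in 0.589 kb of intergenic sequence. Fhl3 held the widest of them, at 10.2 kb. With 6 peaks Pou3f1 had more within 100 kb than Otx2, Zic2 or Foxd3, with 5 each, although none was at Pou3f1 itself. This order turned among peaks at least 1 kb wide, where Pou3f1 had 4 and the others 5 each, and within 50 kb, where Pou3f1, Zic2 and Foxd3 had 3 each and Otx2 had 5.

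Upstream of Pou3f1 the list was empty for 580 kb. The stretch without a peak that holds the gene measured 616 kb, and 3.64% of the 22952 gaps between neighbouring peaks were longer. The median gap was 26.7 kb.

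Fgf5, at chr5:98254184-98277030, had neither a promoter nor a body peak, and both of its TSSs were unmarked. The single peak within 100 kb ended 68.0 kb upstream. It measured 0.437 kb, and 3.06% of peaks were narrower. All of its 437 bases were coding sequence of Prdm8, a gene whose own promoter was unmarked. Because it is the only peak near Fgf5, its middle is printed, with CpGs in capitals.
Middle of the Prdm8 peak upstream of Fgf5, chr5:98185866-98186165, plus strand: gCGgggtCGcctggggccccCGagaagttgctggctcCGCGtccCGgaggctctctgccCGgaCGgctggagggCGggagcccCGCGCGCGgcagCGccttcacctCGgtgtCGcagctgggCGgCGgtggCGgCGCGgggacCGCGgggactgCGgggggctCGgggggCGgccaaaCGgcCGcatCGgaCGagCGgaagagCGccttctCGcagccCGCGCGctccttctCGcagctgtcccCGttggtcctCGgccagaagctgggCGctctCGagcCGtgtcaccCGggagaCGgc
These 300 bases held 44 CpGs at 77.0% GC, beside at most 19 in any of the 200-base promoter stretches printed above. Downstream of the Fgf5 TSS the next peak was 664 kb away. The gap that contains Fgf5 measured 732 kb, and 2.91% of gaps were longer. Neither of the 2 neighbouring genes, Prdm8 and Cfap299, had a marked promoter. Fgf5 had 0.437 kb under peaks within 100 kb, and 20.1% of protein-coding genes had less. Nearly all of these had no peak there at all, which was so for 19.6% of protein-coding genes.

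**Figure D3:**
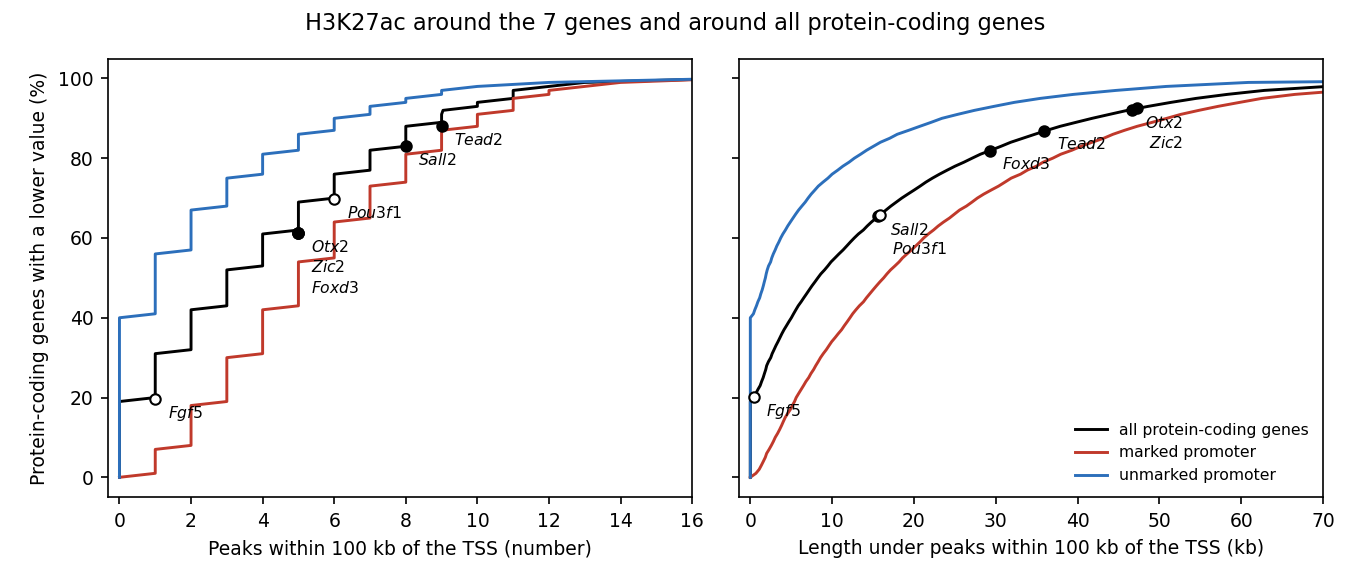
Number of peaks (left) and length under peaks in kb (right) within 100 kb of the main TSS, each against the percentage of protein-coding genes with a lower value. Lines are all, marked and unmarked protein-coding genes, and points are the 7 genes, filled where the promoter was marked. Zic2 and Otx2 lie at 92.5% and 92.2% by length but at 61.3% by number, while Pou3f1 lies at 69.7% by number.

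Number and length ordered the genes differently. By number within 100 kb the order was Tead2 with 9, Sall2 with 8, Pou3f1 with 6, Otx2, Zic2 and Foxd3 with 5 each, and Fgf5 with 1. Within 50 kb it was Otx2 and Sall2 with 5 each, Tead2 with 4, Pou3f1, Zic2 and Foxd3 with 3 each, and Fgf5 with 0. Within 200 kb it was Tead2 with 22, Pou3f1 with 12, Sall2 with 10, Zic2 with 9, Foxd3 with 6, Otx2 with 5 and Fgf5 with 1. By length within 100 kb it was Zic2, Otx2, Tead2, Foxd3, Pou3f1, Sall2 and Fgf5. This order also depended on the distance. Within 50 kb Otx2 led with 46.7 kb, followed by Foxd3 with 23.4 kb and Zic2 with 23.2 kb, and within 200 kb Tead2 led with 88.8 kb. Within 100 kb Zic2 and Otx2 differed by less than 1 kb, as did Pou3f1 at 15.8 kb and Sall2 at 15.6 kb, and no error is available to separate these neighbours.

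The width of the promoter peak, which includes calls joined across gaps of up to 2 kb, separated the 5 marked genes into 2 sizes. The widest peak over a promoter window measured 18.1 kb at Otx2, 17.7 kb at Zic2 and 14.5 kb at Foxd3. It measured 2.33 kb at Tead2 and 1.85 kb at Sall2. The 2.33-kb peak of Tead2 held no TSS and only reached the promoter window of an isoform that starts 15.6 kb downstream. The peak at the main TSS of Tead2 measured 1.88 kb. The wide peak of Otx2 lay over its internal TSSs and the Otx2os1 promoter, and the peak at its main TSS measured 1.73 kb, close to those of Tead2 and Sall2. Over the 11384 marked protein-coding genes the median was 2.30 kb and 11.8% had a promoter peak of at least 10 kb. By its widest promoter peak Tead2 sat near the middle, and Otx2, Zic2 and Foxd3 stood among or at the edge of the widest 6.84%. Of the 39 peaks near the 7 genes 8 were at least 10 kb wide, or 20.5%, and of all peaks 7.51% were.

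CpG content placed Pou3f1 and Fgf5 with the promoters that were usually marked. The CpG ratio, the number of CpGs over that expected from the C and G content, was taken in the 1 kb around each main TSS. It was 0.653 at Pou3f1 and 0.739 at Fgf5. Among protein-coding promoters with a ratio from 0.5 to 0.75, 68.4% were marked at the main TSS, and the interquartile range of genes with no marked promoter was 0.131 to 0.485. Of the 11249 protein-coding genes unmarked at the main TSS 13.9% had a higher ratio than Pou3f1 and 8.33% a higher one than Fgf5.

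The marked genes ranged more widely, and 3 of them lay above both unmarked genes. The ratio was 0.920 at Zic2, 0.821 at Foxd3, 0.769 at Otx2 and 0.587 at Tead2. In the class of at least 0.75, which holds the first 3 of these, 86.2% were marked. Sall2 had 0.338 at its main TSS, where 26.3% of promoters in the class from 0.25 to 0.5 were marked, and 0.512 at its internal TSS.

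**Figure D4:**
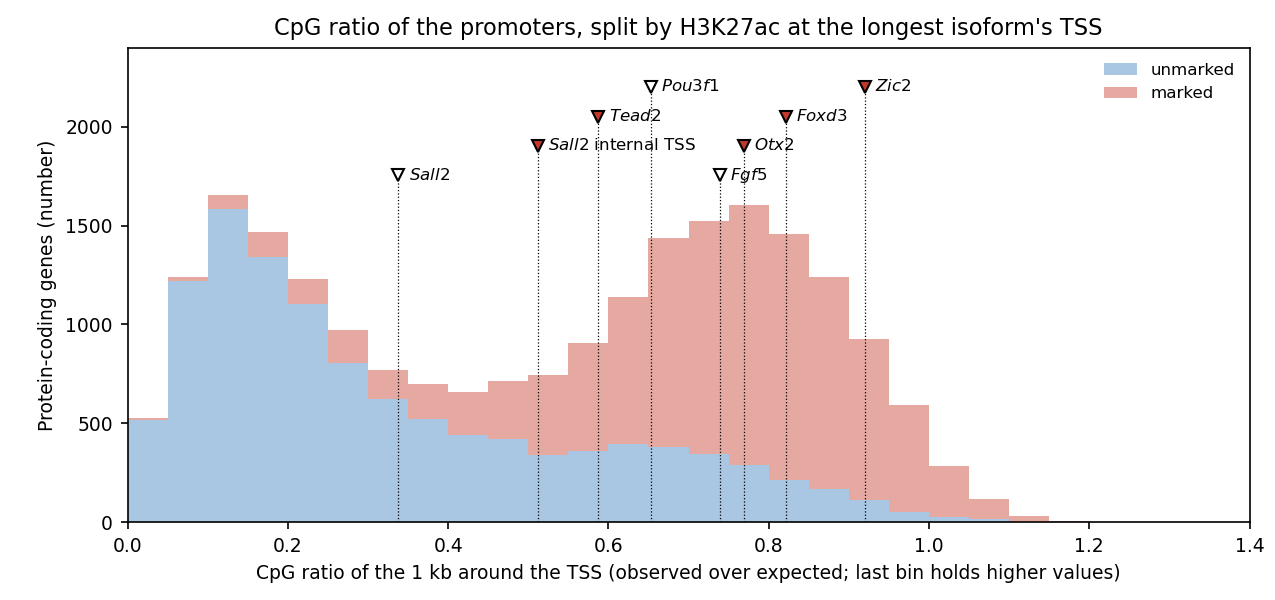
CpG ratio of the 1 kb around the main TSS of 21938 protein-coding genes (horizontal axis) against the number of genes (vertical axis, stacked bars), split by whether a peak lies within 1 kb of it. Triangles are the 7 genes and the internal TSS of Sall2, filled where marked. Pou3f1 at 0.653 and Fgf5 at 0.739 are open and stand in bins that are mostly marked.

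Binding motifs of the families were counted in the middle 300 bp of the 39 peaks, on both strands, and no motif contains another. The TEAD motif GGAATG occurred in 5 of 39 and in 15.9% of all peaks. The bicoid-type motif TAATCC, bound by Otx2, occurred in 3 and in 9.30% of all peaks. The octamer ATGCAAAT occurred in 1, beside 1.76% of all peaks, and the forkhead motif GTAAACA in 0, beside 3.50%. A match in this window describes letters and not a bound site.

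Of 19 family members of the 7 genes 8 were marked, 42.1%, beside 51.9% of protein-coding genes, and the median length under peaks was 10.8 kb. In the Pou3f family none of Pou3f2, Pou3f3 and Pou3f4 was marked, nor had any of them a peak within 100 kb, so Pou3f1 was the family's only gene with peaks nearby. In the Foxd family Foxd3 was marked and Foxd1, Foxd2 and Foxd4 were not. All of Tead1, Tead3 and Tead4 were marked like Tead2.

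The other families were mixed. Zic5 was marked and the linked genes Zic1 and Zic4 were not, their nearest peak being more than 880 kb away. Sall1 and Sall3 were marked and Sall4 was not at any of 7 isoforms. Sall1 had 101 kb under peaks, the most of any relative. Otx1 was marked by a narrow peak, the only one within 100 kb of it, and Crx, a photoreceptor factor, was unmarked. Fgf4, which encodes the growth factor secreted by naive cells, was marked and had 52.8 kb under peaks, while Fgf6 was unmarked.

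FGF receptors and the coactivators of TEAD factors were marked in 4 of 6 cases, 66.7% beside 51.9% of protein-coding genes. Of the receptors Fgfr1 was marked at 9 of 19 isoforms. Fgfr2 counted as marked through 1 of 27 isoforms, the one with the longest span, which stretches the annotated gene to 2961 kb with 53 peaks in its body. The other 26 isoforms were unmarked. Fgfr3 and Fgfr4 were unmarked. Yap1 was marked at 8 of 10 isoforms and Wwtr1 at 2 of 2.

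Among 17 other formative and primed genes 11 were marked, 64.7% beside 51.9% of protein-coding genes, with a median of 13.3 kb under peaks. These were the de novo DNA methyltransferase genes Dnmt3a and Dnmt3b, the Ets factors Etv1, Etv4 and Etv5, and Lef1, Grhl2, Rbpj, Tdgf1, Pim2 and Zic5. Rbpj, like Sall2, was marked at other isoforms and not at its main TSS. Tcf15, Sox3, Lin28b, Nodal, Cdh2 and Sox11 were unmarked. The unmarked genes of this list differed in their surroundings. Sox3, Sox11, Lin28b and Cdh2 had no peak within 100 kb, whereas Nodal had 35.5 kb and Tcf15 44.5 kb under peaks.

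Naive genes had more sequence under peaks than the 7 genes. Their median was 61.2 kb, from the 12.0 kb of Nr0b1 to the 116 kb of Nanog, over a median of 3.5 peaks. The widest promoter peak of each of the 11 marked naive genes was at least 10 kb, with a median of 34.9 kb, beside 3 of the 5 marked genes here, with a median of 14.5 kb. Core genes had a median of 33.0 kb and germ layer genes one of 8.77 kb. The values of the lists overlapped, and Otx2 and Zic2 exceeded 5 of the 12 naive genes, Nr0b1, Nr5a2, Gbx2, Esrrb and Klf4, of which Klf4 was the unmarked one.

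**Figure D5:**
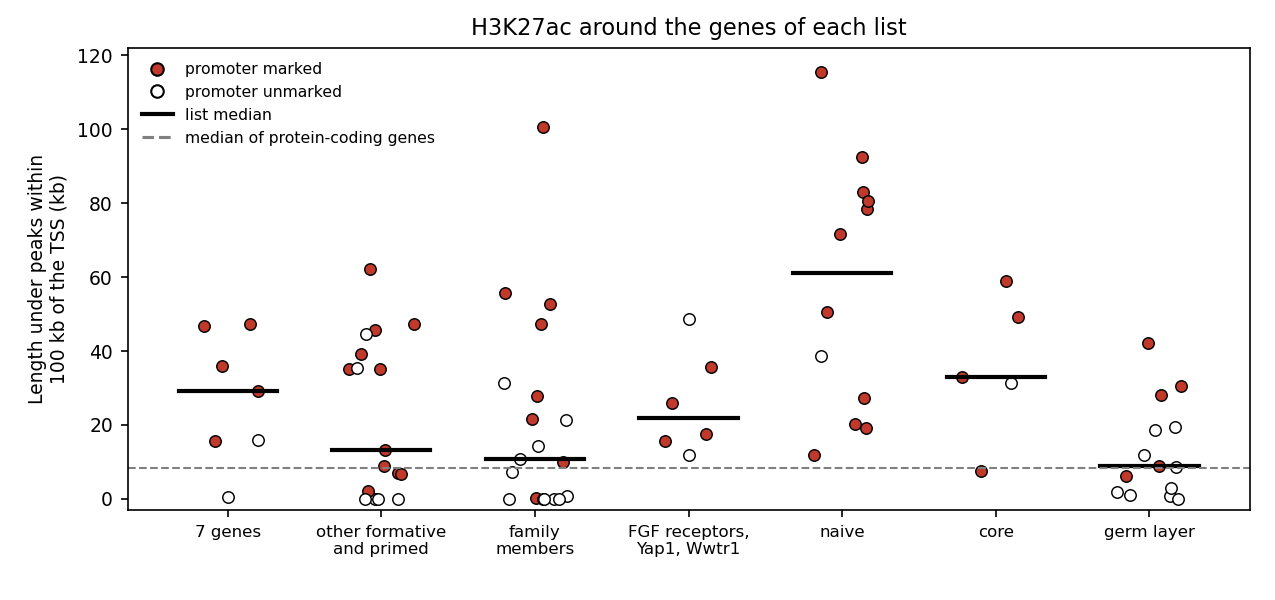
Length under peaks within 100 kb of the main TSS, in kb, for each gene of 7 lists. Points are genes, filled where the promoter was marked, bars are list medians, and the dashed line is the median of protein-coding genes, 8.25 kb. The 7 genes have a median of 29.3 kb, the naive genes 61.2 kb and the germ layer genes 8.77 kb.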

How the data were processed

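H3K27ac was measured by ChIP-seq in 6 samples of E14 (E14Tg2A) mouse embryonic stem cells, 2 per group, with HEK293T chromatin as spike-in. Per the study's methods, reads were trimmed with cutadapt, aligned with BWA to mm10 together with a human genome, freed of duplicates with Picard 2.9.1 and filtered with SAMtools 1.4. The authors called peaks with LanceOtron, merged those within 2 kb, and removed weakly enriched peaks and those away from ATAC-seq summits. A gene without a peak in the list is therefore not shown to lack the mark, and width partly reflects merging. The shortest gap between deposited peaks was 2001 bp. The deposited file gives start and end positions in base pairs of 1 pooled control list, with no counts, scores or heights, so the depth behind a peak cannot be read from it and no error can be given. Library read totals stated by the study were not used.

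Peaks were compared with GENCODE M21 on GRCm38.p6, the same build as mm10, over 21938 protein-coding and 5854 lincRNA genes with 110180 isoforms of any type. The study's methods name a later GENCODE release. A promoter was the TSS with 1 kb on each side, marked by an overlap of at least 1 bp. Neighbourhoods were 100 kb on each side of the TSS of the longest-span isoform. GC content and the CpG ratio used 500 bp on each side. Analyses ran in Python 3.11.15 with pandas 2.3.3, and the overlap functions were checked on simulated intervals. The genes named were the 7 members, their families and partners, marker lists, and genes at whose promoters nearby peaks lie. The 7 genes and all lists were chosen with earlier results of these data known. Some neighbours were named after their values were seen, namely those without a peak at the promoter and Otx2os1, Clybl and Prdm8. A few items are not reported here.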

Additional observations from a re-analysis of the deposited data

How the results depend on the processing

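The list has 1 pooled control set and no replicates, which leaves nothing to drop in turn and gives no result a test. No paired analysis was possible because the list does not separate the samples. The count of 5 marked genes was the same with windows of 500 bp or 2 kb, with a peak required over the TSS, with protein-coding transcripts only, with an overlap of at least 500 bp and with peaks at least 1 kb wide. It was 4 with the main TSS only, where Sall2 was lost. The number of genes with a body peak, 5, fell to 0 once peaks over the gene's own promoter windows were left out. The share of all protein-coding genes under that setting is not given here. The median number of peaks was 3 within 50 kb and 9 within 200 kb, and the median length under peaks was 9.25 kb within 50 kb. The remaining alternatives moved these values by less than 1.5 times. The only peak near Fgf5 was lost among peaks at least 1 kb wide and within 50 kb.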
